A study of Mus musculus with 39 samples.

Results

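The Toll-like receptors of mouse brown fat stromal cells are described here across diets and time. The set holds 10 genes of the 29411 gene symbols on the array. Its members were taken by symbol and not by a measured value, but earlier results of these data were known when the set was chosen. The surface receptors are Tlr1, Tlr2, Tlr4, Tlr5 and Tlr6, and the endosomal receptors are Tlr3, Tlr7, Tlr8, Tlr9 and Tlr13. Gene expression was measured on 39 single-colour Agilent arrays, labelled as macrophages infiltrating brown fat, taken with the stromal vascular cells (SVCs) of C57BL/6J mice. Every mouse entered the study at weaning, at 3 to 4 weeks of age, in groups of 30 animals. The low fat control diet (LFC, 10 arrays) had 10% of its calories from fat. The high fat diet (HFC, 11 arrays) had 60% of its calories from fat and more sucrose. The remaining groups ate that same high fat diet with KAL-1, a botanical formulation, at 5 µg (HF5), 20 µg (HF20) or 75 µg (HF75), with 6 arrays each. The 11 time labels run from Day 1 to Week 18, with the KAL-1 groups from Week 3 onward and no LFC array at Week 6. The series description speaks of 3 biological replicates, whereas each diet had 1 array per time label here, and the labels do not say whether an array is 1 animal or a pool. The SDs, SEMs and p-values therefore measure the spread between time labels.

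Toll-like receptors recognise conserved molecules of microbes and some molecules released by damaged cells. Surface receptors bind mainly lipids and proteins of microbes, while endosomal receptors bind nucleic acids after uptake. Most signal through the adaptor MyD88 to NF-kB and cytokine genes, and Tlr3 signals through TRIF. In fat tissue, macrophages are a main site of their expression, and fat cells also carry Tlr4.

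The start-site regions of 4 receptors are shown because the results below turn on them: Tlr2 and Tlr13 differed most between kinds of array title, Tlr5 differed in the opposite direction, and Tlr9 was above background on every array. RefSeq (GRCm38.p6) gave 10 start-site regions for 8 receptors, each running from 250 bases before the start to 50 after it, and Tlr4 and Tlr7 had no entry. Capitals mark GAGGAA on either strand (TTCCTC on the other), a purine-rich ETS box of the kind read by PU.1, a factor of macrophages and other myeloid cells. The Tlr2 region is chr3:83841559-83841858 on the minus strand, the Tlr5 region chr1:182954538-182954837 on the plus strand, the Tlr9 region chr9:106222348-106222647 on the plus strand and the Tlr13 region chrX:106143025-106143324 on the plus strand, each printed 5′ to 3′ along its gene.
Tlr2: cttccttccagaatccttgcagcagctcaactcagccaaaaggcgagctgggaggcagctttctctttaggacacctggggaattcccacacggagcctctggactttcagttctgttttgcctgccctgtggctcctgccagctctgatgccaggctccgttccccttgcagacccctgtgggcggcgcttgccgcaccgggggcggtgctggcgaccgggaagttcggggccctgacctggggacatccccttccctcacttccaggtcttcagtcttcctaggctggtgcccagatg
Tlr5: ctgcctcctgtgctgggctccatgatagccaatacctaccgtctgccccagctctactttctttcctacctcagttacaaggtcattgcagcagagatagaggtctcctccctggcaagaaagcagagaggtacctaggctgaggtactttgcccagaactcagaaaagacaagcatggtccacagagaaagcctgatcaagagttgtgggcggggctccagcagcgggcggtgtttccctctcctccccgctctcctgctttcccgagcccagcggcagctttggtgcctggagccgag
Tlr9: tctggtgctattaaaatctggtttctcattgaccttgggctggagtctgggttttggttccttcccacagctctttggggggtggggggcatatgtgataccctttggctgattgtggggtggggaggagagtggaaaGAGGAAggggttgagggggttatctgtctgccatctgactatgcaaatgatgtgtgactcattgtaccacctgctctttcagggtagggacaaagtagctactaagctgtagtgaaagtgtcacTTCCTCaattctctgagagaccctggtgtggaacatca
Tlr13: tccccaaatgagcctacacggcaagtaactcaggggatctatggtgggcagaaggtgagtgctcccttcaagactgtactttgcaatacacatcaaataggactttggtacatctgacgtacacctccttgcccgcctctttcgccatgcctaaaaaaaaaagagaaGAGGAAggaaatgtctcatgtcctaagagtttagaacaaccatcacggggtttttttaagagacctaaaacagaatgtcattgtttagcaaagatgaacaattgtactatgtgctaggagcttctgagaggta
The Tlr9 region held 2 such boxes, the Tlr13 region 1, and the Tlr2 and Tlr5 regions 0. The box was found in 4 of the 10 regions, and in 28.3% of 32851 mouse regions of the same length. An NF-kB-like motif (GGGA, any 2 bases, then TTCC) stood in 1 of the 10 regions, that of Tlr3, against 1.47% of all regions. An interferon-factor-like motif (GAAA, any 2 bases, then GAAA), searched like the others on both strands, stood in 1 region, a Tlr6 start, where 2 matches lay, against 3.44% of all regions. A match describes letters only, and looser forms of these motifs were not searched. The Tlr2 region, for example, holds ggggaattcc, which is 1 letter from the NF-kB-like motif and was not counted.

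Some arrays stood apart before any comparison. On the HF20 array of Week 15, 71.4% of spots were marked as outliers by the scanner software, and among the 10 receptors' brightest probes only Tlr2 and Tlr9 were measured there. The HF5 and HFC arrays of Week 12 had 18.6% and 11.1% of spots marked. One label of the HF20 array of Week 12 gives the high fat diet without KAL-1, and its source name gives HF20. Array brightness, as the 75th percentile of the signal, ran from 18.1 to 3974 (median 130), and 31.2% to 98.0% of probes were well above background. Macrophage markers were present, with Emr1 and Csf1r well above background on 39 of 39 arrays and Cd68 on 38 of 38. Fat cell genes were present as well: Adipoq and Ucp1 were above background on 39 of 39 arrays. Their levels varied widely, on the log2 scale described below. Ucp1 ran from -3.18 to 8.82 (median 6.23) and Adipoq from 1.12 to 7.04 (median 3.85). The summed level of the brown fat cell markers ran from 2.86, on an HFC array, to 1578 (median 332). Of the 10 neutrophil markers, S100a8, S100a9 and Retnlg were above background on 39 of 39 arrays. The others were on fewer, down to 18 of 37 for Il8rb. In such mixed material, fewer cells of a type and less RNA per cell cannot be told apart.

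Values are log2 signals relative to the 75th percentile of the same array, so 0 is the level of that percentile, and levels are compared within a receptor only. Among the surface receptors, Tlr2, which detects bacterial lipoproteins together with Tlr1 or Tlr6, was well above background on 38 of 39 arrays. Its level ran from -1.97 to 1.90 (median 0.17) on LFC arrays and from -2.09 to 3.03 (median 0.44) on HFC arrays. On KAL-1 arrays it ran from -1.62 to 2.64 in HF5, -2.17 to 0.58 in HF20 and -2.23 to 0.97 in HF75. The 5 diets overlapped widely. Tlr4, the receptor for lipopolysaccharide, was above background on 33 of 38 arrays. Its level ran from -4.83 to -0.80 (median -1.83) in LFC, from -2.84 to -0.20 (median -1.77) in HFC and from -2.21 to -0.31 (median -0.85) in HF5. It ran from -3.52 to -1.04 in HF20 and from -2.13 to -0.72 in HF75, again with overlap of all diets. Tlr1 and Tlr6, the lipopeptide partners of Tlr2, were each above background on 28 of 38 arrays, with means of -2.67 ± 1.11 and -2.71 ± 1.21 (SD, n = 38 each). Tlr1 had its highest diet mean in HF5, -1.83 ± 0.97 (SD, n = 6), and its lowest in HF20, -2.98 ± 1.11 (SD, n = 5). Tlr5, the flagellin receptor, was above background on 10 of 38 arrays, so most of its values are near the detection limit.

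Among the endosomal receptors, Tlr9, which detects unmethylated CpG DNA, was above background on 39 of 39 arrays. Its level ran from -0.82 to 2.35 (median 1.57) in LFC, -0.24 to 2.47 (median 2.15) in HFC and 0.15 to 2.70 (median 1.19) in HF5. It ran from -0.99 to 3.63 (median 2.01) in HF20 and 0.83 to 3.22 (median 2.34) in HF75. No diet was separate from the others. Tlr13, a mouse receptor for bacterial ribosomal RNA, was above background on 37 of 38 arrays and had the widest spread of the 9 tested receptors, with an SD of 1.81 over 38 arrays. Its level had a median of -1.73 and reached 0.61 in LFC, and it ran from -4.07 to 1.04 (median -1.26) in HFC and -3.65 to 2.74 (median -0.21) in HF75. In HF5 it ran from -3.50 to 1.76 and in HF20 from -3.72 to 1.40. The lowest Tlr13 value of each diet lay on a BA or BAT array, described below. Tlr7, a receptor for single-stranded RNA, was above background on 25 of 38 arrays, with a mean of -2.61 ± 0.92 (SD, n = 38). Its highest value, 0.03, was on the HFC array of Week 12, and its lowest, -4.12, on the LFC array of Week 18. Tlr3, the receptor for double-stranded RNA, was above background on 16 of 38 arrays, and its second probe on 13 of 39. Tlr8, the close relative of Tlr7, was above background on 2 of 38 arrays, 1 HFC and 1 HF5, and was not tested. In 10 of 10 receptors the span of the 5 diet means was smaller than the largest SD within a diet, and each step between neighbouring diets was smaller than the smallest SD, so no order of the diets stood beyond the spread.

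**Figure D1:**
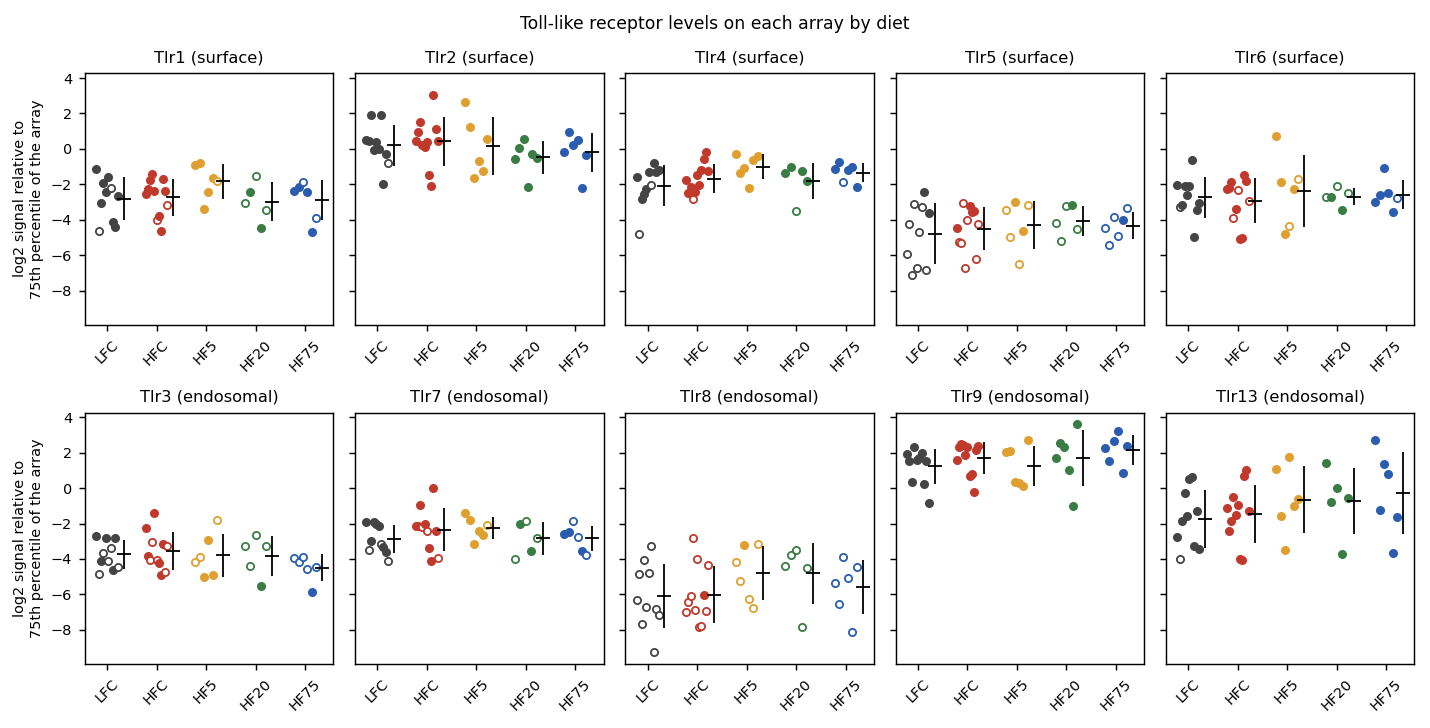
Log2 level of each receptor relative to the array's 75th percentile (vertical axis) by diet (horizontal axis), each point an array (open: not well above background), with the diet mean as a tick and the SD as a bar. The diets overlap in all 10 receptors, and Tlr9 was measured above background on 39 arrays while Tlr8 was on 2.

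The comparison of HFC with LFC asks what the high fat diet changed. None of the 9 tested receptors passed: 0 of 9 had an adjusted p under 0.05, against 0% of the 31718 probes tested (limma, diet plus time label, Benjamini-Hochberg over all probes), and 0 of 9 had an unadjusted p under 0.05, against 3.09% (980 probes). Fitted differences ran from -0.14 for Tlr6 to 0.54 for Tlr7 on the log2 scale, and 8 of 9 were above 0, where 53.3% of all probes were. The median over the receptors was 0.29 and over all probes 0.04. Over the 10 time labels with both diets, Tlr4 was higher in HFC in 5 and lower in 5, with a mean difference of 0.43 ± 0.26 (SEM, n = 10) and an exact permutation p of 0.121, the lowest of the 10 receptors. Its largest difference, 2.33 at Day 6, set an HFC array against an LFC array with BA or BAT in its title. On that LFC array Tlr4 was not well above background. Tlr3 was higher in 8 of 10 time labels, by 0.27 ± 0.37 (SEM, n = 10, exact permutation p = 0.469). At Day 14, Week 3 and Week 18, which are among the 8, neither array was well above background for Tlr3. The LFC array of Day 6 and the HFC array of Day 10 were not either. The differences at Week 3 and Day 10 were 0.0085 and 0.045. The LFC arrays of Day 6, Week 12 and Week 18 and the HFC array of Day 1 had BA or BAT in their titles. Tlr13 was higher in 7 of 10, by 0.53 ± 0.76 (SEM, exact permutation p = 0.529). Tlr2 differed from -3.98 to 4.99 between the diets of single time labels, with a mean of 0.42 ± 0.69 (SEM, n = 10). These extremes, at Week 9 and Week 12, each set an array with BA or BAT in its title against one without it. Exchanging the diets within 10 pairs can give a p of 0.00195 at the smallest. For the 6 time labels scanned on a shared date, the mean difference was 1.23 for Tlr2, 1.38 for Tlr13, 1.07 for Tlr7 and 0.25 for Tlr4. At Week 12 and Week 18 of these, the LFC array had BA or BAT in its title and the HFC array did not. Tlr2 differed by 4.99 and 1.24 there, and by -0.37, 0.28, -0.24 and 1.46 at Day 10, Day 14, Week 0 and Week 15. In the same order Tlr13 differed by 3.96 and 2.15, and by 0.04, -0.25, 0.07 and 2.33. Tlr7 differed by 3.36 and 0.15, and by 2.03, -0.31, 0.02 and 1.18. The diet difference at Week 3 and later was not shown to differ from that before: 0 of 9 receptors passed the interaction, against 0% of probes, and 0 of 9 had an unadjusted p under 0.05, against 2.6% (826 probes).

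**Figure D2:**
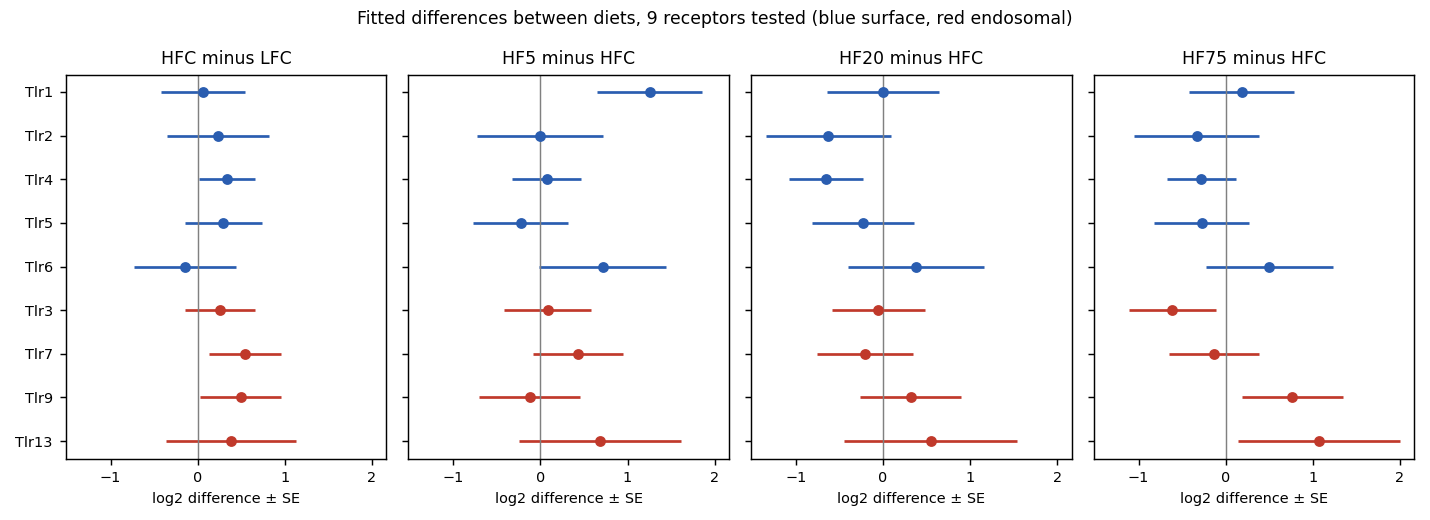
Fitted log2 difference (horizontal axis, point, with a bar of 1 SE either way) of the 9 tested receptors (vertical axis) for HFC against LFC and each KAL-1 dose against HFC. The largest, Tlr1 in HF5, is 1.26 ± 0.60, and none of the differences passed the adjusted threshold.

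The KAL-1 groups were compared with HFC, with time label in a fit of all 39 arrays, to ask whether the formulation changed the receptors beside the same high fat diet. These comparisons share the HFC arrays. None of the 9 receptors passed in HF5, HF20 or HF75 by limma, against 0% of probes in each. At an unadjusted p under 0.05, 1 of 9 receptors was found in HF5 (1.59% of probes, 505), 0 of 9 in HF20 (2.82%, 896) and 0 of 9 in HF75 (3.82%, 1213). The receptor in HF5 was Tlr1. On the 6 HF5 arrays in order of time it was -0.89, -0.79, -3.38, -2.42, -1.67 and -1.82, and on the HFC arrays of the same time labels -4.02, -3.81, -4.64, -1.73, -2.36 and -3.18. The HFC value of Week 3 and both values of Week 18 were not well above background. Both diets were scanned on a shared date at 6 of 6 time labels, and Week 12 is where HFC was higher. The fitted Tlr1 difference was 1.26 ± 0.60 (limma, SE, unadjusted p = 0.0463). Over the 6 paired time labels Tlr1 was higher in HF5 in 5 of 6, by 1.46 ± 0.59 (SEM, n = 6, exact permutation p = 0.0938, where 0.0312 is the smallest p possible). Tlr13 was higher than in HFC in all 3 fits, by 0.68 in HF5, 0.55 in HF20 and 1.07 in HF75, without passing. Over its pairs the Tlr13 difference in HF75 ran from -4.69 to 5.44, a spread wider than any of these values. Both ends, at Week 15 and Week 9, set an array with BA or BAT in its title against one without it. Tlr4 differed by 0.07, -0.65 and -0.28 in HF5, HF20 and HF75, also without passing. The slope over the rank of the dose passed in 0 of 9 receptors, against 0% of probes, and in 0 of 9 unadjusted, against 7.41% (2351 probes). HF20 could be paired with HFC on 5 time labels for the receptors that the Week 15 array did not measure, where no exact p can go under 0.0625.

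Over time, in the LFC and HFC arrays, 0 of 9 receptors passed the slope over log2 days, against 0% of probes, and 1 of 9 had an unadjusted p under 0.05, against 12.9% (4087 probes). That receptor was Tlr4, whose level was higher at the later labels by 0.24 ± 0.09 per doubling of days (limma, SE, adjusted p = 0.269). From Day 1 to Week 0 Tlr4 ran from -4.83 to -1.59 in LFC, with a mean of -2.81 ± 1.22 (SD, n = 5). The value of -4.83, at Day 6, was not well above background and lay on an array with BA or BAT in its title. From Week 3 to Week 18 Tlr4 ran from -2.07 to -0.80 in LFC, with a mean of -1.34 ± 0.46 (SD, n = 5). In HFC the means were -2.34 ± 0.40 (SD, n = 5) and -1.12 ± 0.66 (SD, n = 6). The early and late arrays overlapped in both diets. The later labels of single diets varied widely for several receptors. On HFC arrays Tlr2 lay between 0.13 and 1.53 from Day 1 to Week 0, then at 0.37, -1.46, -2.09, 3.03, 1.14 and 0.44 from Week 3 to Week 18. On LFC arrays it lay between -0.08 and 1.90 up to Week 0, then at -0.02, 1.89, -1.97, -0.31 and -0.80. The lowest and highest Tlr2 values of HFC were thus neighbours in time, at Week 9 and Week 12, the first an array with BA or BAT in its title and the second the one with 11.1% of spots marked. Tlr13 followed a like course on HFC arrays, at -0.97, -3.98, -4.07, 0.68, 1.04 and -1.26 from Week 3 to Week 18. Tlr6 was also low at Week 6 and Week 9 in HFC, at -5.11 and -5.03, and -1.45 at Week 12. Tlr7 was -3.38 and -4.09 at those labels and 0.03 at Week 12. On the HFC array of Week 6, whose title has no BA or BAT, these receptors were thus low as well. The other receptors had slopes from -0.19 (Tlr7) to 0.19 (Tlr5). In HFC, Tlr1 had a mean of -2.08 ± 0.47 (SD, n = 5) early and -3.29 ± 1.09 (SD, n = 6) late, and in LFC it had -2.64 ± 1.32 and -2.99 ± 1.22 (SD, n = 5 each).

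**Figure D3:**
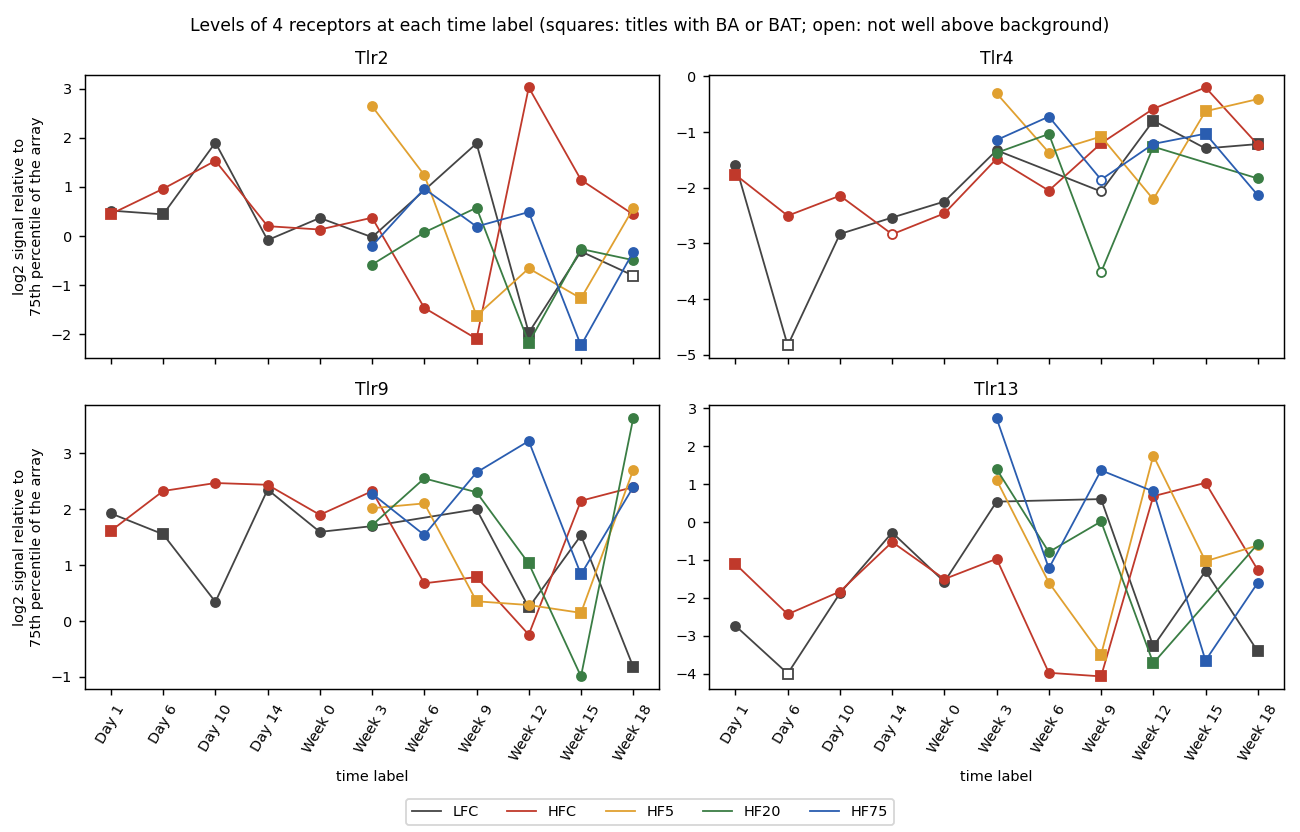
Log2 level of Tlr2, Tlr4, Tlr9 and Tlr13 relative to the array's 75th percentile (vertical axis) at each time label (horizontal axis), a line per diet, with squares for titles with BA or BAT and open symbols for arrays not well above background. Tlr4 lies between -4.83 and -1.59 on LFC arrays up to Week 0 and between -2.07 and -0.80 from Week 3.

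The array titles split the receptors where the diets did not. In 9 sample titles BA or BAT appears (3 LFC, 2 HFC, 2 HF5, 1 HF20 and 1 HF75), in the other 30 it does not, and the labels do not explain it. This comparison was chosen with earlier results of these data known. With diet and time label in the fit, 8 of 9 receptors passed (limma, adjusted p under 0.05), against 50.4% of probes, and 8 of 9 had an unadjusted p under 0.05, against 56.8%. Of these, 7 were lower on BA or BAT arrays, against 28.4% of probes, and 1 was higher, against 22%. The 7 were Tlr1, Tlr2 and Tlr6 of the surface group and all 4 tested endosomal receptors, and the median of the 9 was -1.37, against -0.16 over all probes.

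Tlr13 differed most among the receptors. It ran from -4.07 to -1.03 (median -3.50) on the 9 arrays and from -3.98 to 2.74 (median -0.62) on 29 others, a difference of -2.87 ± 0.52 (SE), which is 7.32-fold lower (limma, adjusted p = 0.000212). Tlr2 ran from -2.23 to 0.45 (median -1.62) against -1.46 to 3.03 (median 0.37), and was lower by 4.00-fold (limma, adjusted p = 0.000839). The ranges of both overlapped between the kinds of title. Tlr3 differed by -1.37 ± 0.31 in measured signal (SE, limma, adjusted p = 0.00108), and its second probe by -1.12 ± 0.43 (SE, adjusted p = 0.0310). It was above background on 7 of 9 BA or BAT arrays but on only 9 of 29 others, so most values on the higher side were not above background and no fold is given. Tlr1 and Tlr6 differed by -1.37 ± 0.41 and -1.52 ± 0.52 (SE), Tlr7 by -1.05 ± 0.37 and Tlr9 by -1.10 ± 0.42. Detection ran against the level in some of these: Tlr1 and Tlr6 were each above background on 8 of 9 BA or BAT arrays and 20 of 29 others, and Tlr7 on 7 of 9 and 18 of 29. Tlr9 was above background on 9 of 9 and 30 of 30, Tlr2 on 8 of 9 and 30 of 30, and Tlr13 on 8 of 9 and 29 of 29. Tlr5 differed the other way. It was above background on 8 of 9 such arrays and 2 of 29 others, with medians of -3.65 and -4.50, and differed by 1.29 ± 0.37 in measured signal (SE, limma, adjusted p = 0.00623), but with normexp background correction the difference turned to -1.69. With nearly all of the other arrays not above background, no fold is given for Tlr5. Tlr4 had medians of -1.20 and -1.59 and a difference of 0.15 ± 0.32 (SE, adjusted p = 0.709), with an unadjusted p of 0.638, and it was the only receptor of the 9 that did not pass. The count of 8 fell to 4 when scaled to the array median, to 3 with quantile normalization and to 4 without Week 9, and Tlr2 and Tlr13 were lower and passed under the 25 of 25 alternatives listed at the outset, but not with brightness as a covariate. The median over all probes was -0.16 as scaled here, 0.24 with quantile normalization, 0.36 with the array median and -1.07 with normexp.

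**Figure D4:**
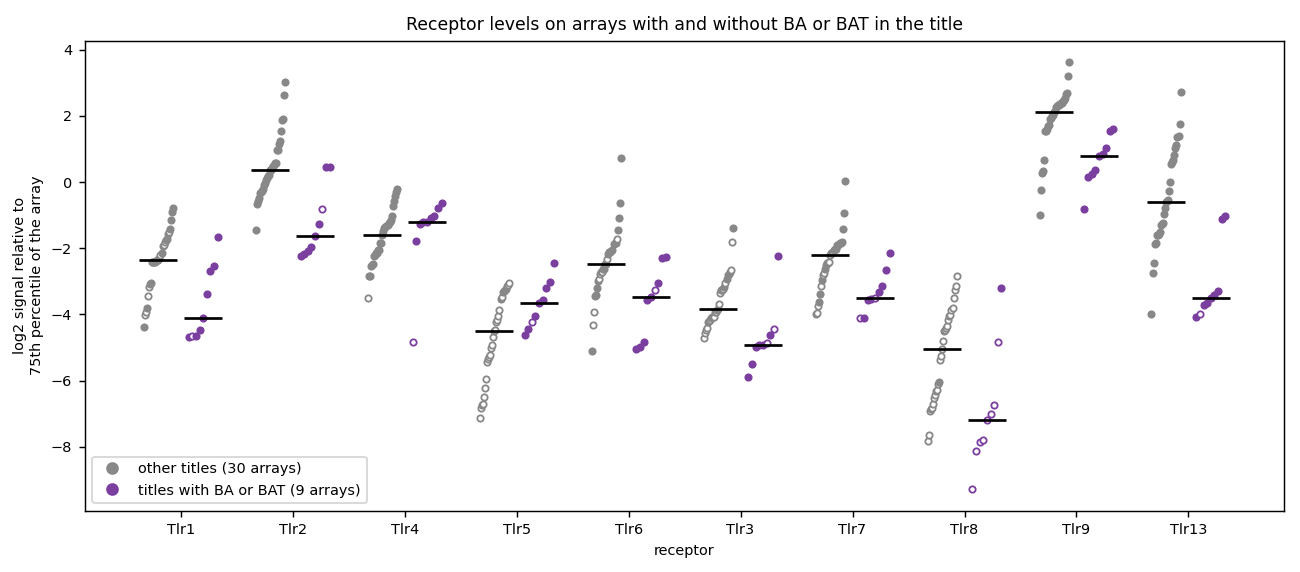
Log2 level relative to the array's 75th percentile (vertical axis) of each receptor (horizontal axis) on the 9 arrays with BA or BAT in the title (purple) and on the 30 others (grey), each point an array in rising order (open: not well above background) and each line a median. Tlr13 and Tlr2 lie lower on the 9 arrays (medians -3.50 and -1.62 against -0.62 and 0.37), Tlr5 lies higher with most of the other arrays not above background, and Tlr4 overlaps.

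Most receptors had these directions within time labels. The fit included time label, so the counts that follow describe the same arrays and are not a further check. In the 6 time labels with both kinds of title, Tlr2, Tlr6, Tlr7 and Tlr9 were lower on the BA or BAT arrays in 6 of 6 and Tlr5 was higher in 6 of 6. Tlr13 and Tlr3 were lower in 5 of 6, Tlr1 in 4 of 6 and Tlr4 in 3 of 6. On 3 scan dates both kinds of title were present, with arrays of Week 12, 15 and 18. On these dates the BA or BAT arrays lay below all others in 3 of 3 for Tlr2 and Tlr3, in 2 of 3 for Tlr13 and Tlr7, and in 1 of 3 for Tlr1, Tlr6 and Tlr9. Tlr1 was higher by 0.19 on the BA or BAT arrays at Week 15. The Week 18 date held 1 BA or BAT array and 2 others. The HF20 and HF75 arrays of Week 18 were scanned on another date, and with them Tlr3 overlapped, at -4.43 on the BA or BAT array and -4.47 in HF75. At Week 12 Tlr2 was -2.17 and -1.97 on the BA or BAT arrays and between -0.66 and 3.03 on the 3 others. The BA or BAT arrays were also brighter, with a median 75th percentile of 852 (124 to 1289) against 81.1 (18.1 to 3974). With that percentile as a covariate, chosen after seeing the data, 0 of 9 receptors passed and 3971 probes did, Tlr9 turned to 0.24, and no further test of brightness was made. Other cell type genes moved with the titles too. Against 28.4% of probes lower and 22% higher, 5 of 9 macrophage, 10 of 10 neutrophil, 6 of 7 B cell, 6 of 8 T cell, 4 of 7 dendritic cell, 6 of 6 erythroid, 4 of 7 fibroblast and 2 of 7 endothelial markers were lower. Of the fat cell markers 6 of 8 were higher and 1 lower, of the brown fat cell markers 2 of 7 were higher, and 0 of 6 skeletal muscle markers passed. The summed level of the macrophage markers ran from 4.70 to 12.8 (median 6.56) on BA or BAT arrays and from 7.15 to 51.1 (median 14.9) on others. That of the neutrophil markers ran from 1.25 to 70.1 (median 3.64) against 1.64 to 1257 (median 140). The part of these markers in the receptor differences was not tested.

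Around the receptors, 49 genes of the same pathway were tested, in lists of accessory proteins, adaptors, kinases and ligases, transcription factors, inhibitors, target cytokines and the relatives Tlr11 and Tlr12. In every diet, dose and time comparison 0 of 49 passed (limma), against 0% of probes in each. At an unadjusted p under 0.05, 5 of 49 were found over time, against 12.9% of probes. The other comparisons had 0 to 2 of 49, against 1.59% to 7.41% of probes. Irf7, a factor of the interferon response below Tlr7 and Tlr9, had the lowest unadjusted p over time among the 49. It had -0.50 per doubling of days (limma, adjusted p = 0.152). Sigirr, an inhibitor of the family, had -0.34 (limma, adjusted p = 0.154). In the title comparison 22 of 49 were lower and 4 higher, where 28.4% and 22% of probes were. The lists did not all move 1 way. Of 11 kinases and ligases, 3 were higher and 2 lower, with a median of 0.52. The higher ones were Ikbkg (1.39), Traf6 (0.98, above background on 14 of 30 other arrays) and Traf3 (0.71). The lower ones were Ikbke (-2.01, above background on 14 of 29 other arrays) and Irak4 (-0.78, on 15 of 29). All 11 target cytokines tested were lower, among them Il1b at a log2 difference of -5.52 and Ccl4 at -4.45, both above background on 9 of 9 BA or BAT arrays and 30 of 30 others. Il6 and Cxcl2 were above background on only 3 of 9 and 2 of 9 BA or BAT arrays, against 29 of 30 and 25 of 29 others, so the size of their difference is not given. Of the lipopolysaccharide partners of Tlr4, Cd14 differed by -1.56, and Ly96, with medians of -0.59 and -0.23, did not pass. Unc93b1, which carries endosomal receptors out of the endoplasmic reticulum, differed by -0.85, and Cd36, a partner of Tlr2 and Tlr6 and a fatty acid carrier of fat cells, by 1.31. None of the 3 adaptors tested passed. Of 7 inhibitors tested, 3 passed, Tnfaip3 (-3.04), Nfkbia (-2.28) and Socs1 (-1.75), which are also induced by these receptors, and were lower.

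Across arrays, several surface and endosomal receptors moved together. As a description over 38 arrays, Tlr2 and Tlr6 correlated at r = 0.75, Tlr1 and Tlr7 at 0.74, and Tlr1 and Tlr2 at 0.62. The 10 pairs among Tlr1, Tlr2, Tlr6, Tlr7 and Tlr13 ran from 0.42 to 0.75 (median 0.59), and from 0.10 to 0.70 (median 0.48) without the BA or BAT arrays. That group was not set at the outset, so its range is a description only. All 45 pairs of receptors ran from -0.27 to 0.75 (median 0.29). Tlr4 correlated at -0.19 to 0.18 with the 9 others and Tlr5 at -0.27 to 0.31. Without the BA or BAT arrays Tlr4 reached 0.38 with Tlr6, 0.31 with Tlr13 and 0.26 with Tlr2, and Tlr5 reached 0.72 with Tlr8, both being mostly not above background. The points share array brightness and cell makeup. With the mean of the macrophage markers, over 37 arrays, Tlr2 correlated at 0.81, Tlr7 at 0.79, Tlr6 at 0.76 and Tlr1 at 0.75, and Tlr4 at 0.17. These values were not particular to macrophage markers. With the neutrophil markers Tlr2 correlated at 0.79, Tlr6 at 0.78, Tlr1 at 0.55 and Tlr7 at 0.53. Tlr9 correlated at 0.79 with the neutrophil, 0.78 with the erythroid and 0.72 with the B cell markers, and at -0.81 with array brightness. Tlr5 correlated at 0.58 with the fat cell markers. Among 13020 genes, the most like Tlr2 were the chemokines Ccl4 (r = 0.92, n = 39) and Ccl3 (0.91) and the receptor Ccrl2 (0.91, n = 37). The most like Tlr6 were the lectins Clec4d (0.89) and Clec4e (0.88) and Mefv (0.88). For Tlr1 they were Lcp2 (0.85) and Sash3 (0.83), both of blood cells, and the transcript NM_175188 (0.82). For Tlr7 they were Pik3r5 (0.79), Ms4a7 (0.76) and Prex1 (0.75), and for Tlr3 AI451617 (0.70), Fam111a (0.68) and Naip2 (0.66). For Tlr13 they were Rhoh (0.92), LOC100048834 (0.92) and Lnp (0.91), and for Tlr9 LOC100044816, 2410004P03Rik and Mobp, each at 0.93. Those of Tlr4 were lower, with Ift57 at 0.75, Dlg1 at 0.73 and Bmpr1a at 0.71, and Tlr5 had 1110021J02Rik (0.74), Ufsp1 (0.72) and Dnajc28 (0.71). For Tlr8, which was near background, they were Dmbt1 (0.79), Gm3970 (0.78) and Kcnmb2 (0.77).

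**Figure D5:**
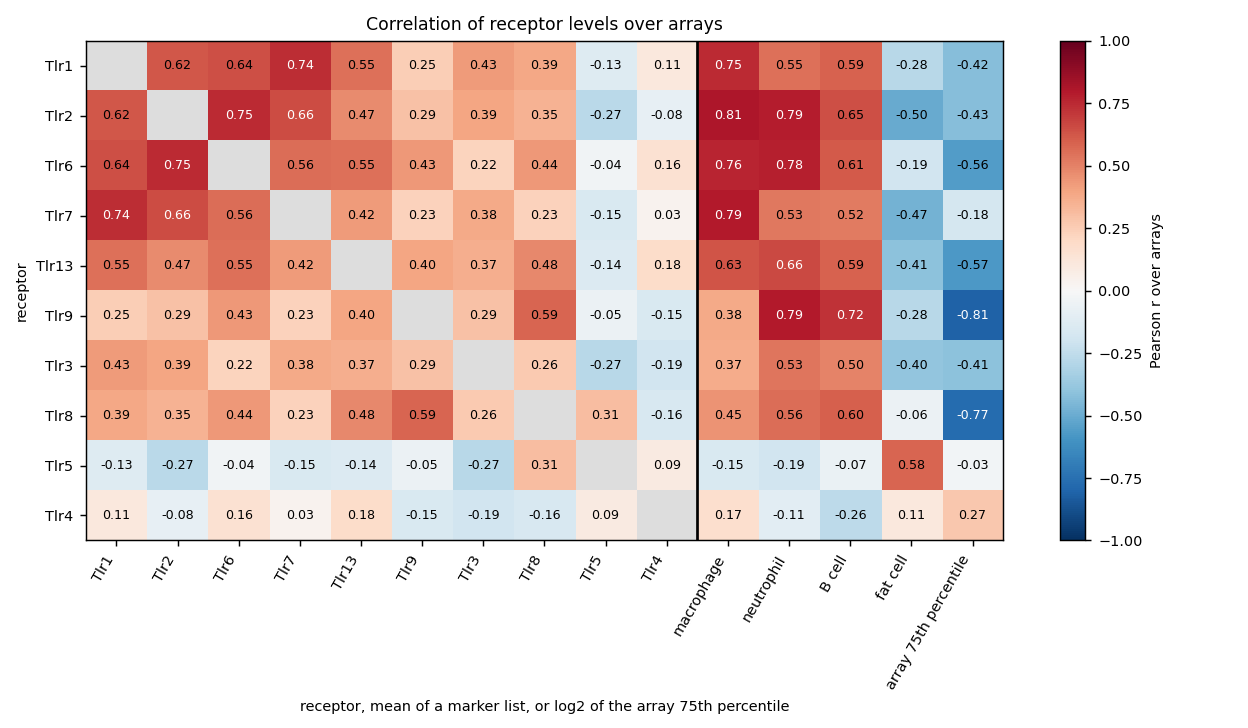
Pearson correlation over arrays of the receptors' log2 levels (rows) with each other and, right of the line, with the mean of 4 marker lists and the log2 of the array's 75th percentile (columns). Tlr1, Tlr2, Tlr6, Tlr7 and Tlr13, a group not set at the outset, correlate at 0.42 to 0.75, and Tlr4 with the 9 others at -0.19 to 0.18. The median of all 45 pairs is 0.29.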

How the data were processed

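Single-colour Agilent mouse arrays were scanned by the authors with Feature Extraction, version 10.5.1.1 per the file headers and 9.1 per the submitters' processing notes. The deposited scanner files hold an intensity per spot, background-corrected by that software, and a further table deposited by the authors holds log2 values per probe, also used here as an alternative after leaving out Day 14, whose columns stood exchanged against the labels. From the intensity, log2 of the processed signal minus the array's 75th percentile was computed. Spots marked as outliers were left out, so a marked spot counted neither as measured nor as above background, spots of a probe were averaged and the brightest probe was taken per gene. Probes well above background on at least 6 arrays were tested, 31718 of 40628. The number of arrays limits the precision. Models with diet and time label (limma 3.58.1, R 4.3.3) were fitted to all probes and adjusted by Benjamini-Hochberg, and exact permutation tests exchanged diets within time labels, two-sided. The fits were tested on simulated data. The receptors, the pathway lists and the marker lists were chosen with earlier results of these data known. Named were all receptors, list genes past the adjusted threshold, otherwise up to 2 per list with the smallest unadjusted p under 0.05, of which examples are given, and for likeness the 3 genes of highest correlation among those above background on at least 30 arrays and measured on at least 35. Alternatives changed the scaling, background correction, filter, array weights, blocks, covariates and arrays left out.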

Additional observations from a re-analysis of the deposited data

Results flagged for a closer look

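In 3 of the 40 groups of a receptor and a diet that were tested, the lowest array lay far from its neighbours (Dixon's test), where chance gives about 1 in 20. Tlr4 in LFC was -4.83 at Day 6, and the nearest of 10 values was -2.83. Tlr3 in HF75 was -5.88 at Week 15, and the nearest of 6 was -4.55. Tlr8 in HF20 was -7.86 at Week 12, and the nearest of 5 was -4.50, all of them near background. The 3 arrays all carry BA or BAT in their titles, and the part of the title in these values was not tested.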

How the results depend on the processing

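The diet, dose and time comparisons called 0 receptors under every alternative run, and 199 of 1726 single receptor values changed sign without passing. Counts of probes called, which were 0, became for HFC against LFC 4 with quantile normalization, 2 with the array median, 1 with probes above background on all arrays, 24 with array weights, 1 without arrays with over 10% of spots marked, 1 without HF20 Week 12, 2 without BA or BAT titles, 4 with the title as a covariate and 1 in the authors' table. For HF75 against HFC they became 3 without those titles and 1 with the title as a covariate, and for the dose trend 35 with weights and 86 with the title. For the trend over time they became 6 with quantile normalization, 10 with probes above background on all arrays, 188 with weights and 12 with the title. Leaving out 1 time label at a time gave 0 to 7 probes for HFC against LFC (7 without Week 15), 0 to 9 for the dose trend (9 without Week 15) and 0 to 1 over time. For the titles, 15986 probes (6979 higher, 9007 lower) became 10601 with quantile normalization (7090 and 3511), 26123 with normexp (7757 and 18366), 24413 without a filter, 2570 with probes above background on all arrays and 3971 with the 75th percentile as a covariate. With the array median the split was 10094 and 5737. Without Week 9 or Week 12 they became 10193 and 9621, and leaving out each time label gave 9621 to 18129. The 8 receptors became 3 with quantile normalization, 4 with the array median, 1 with probes above background on all arrays (only Tlr9 was tested), 0 with the percentile covariate and 4 to 8 when leaving out each time label, 4 without Week 9. Tlr2 and Tlr13 were lower and passed in 25 of 25 settings listed at the outset. With normexp, Tlr4 was at -0.60 and Tlr5 at -1.69, and with the percentile covariate Tlr9 was at 0.24. The causes were not tested. The methods' t-test called 0 probes after Benjamini-Hochberg in the 4 diet comparisons (1283 to 2119 at an unadjusted p under 0.05) and 14628 for the titles. Without time label as a replicate block, the titles called 14202 probes and 7 receptors and the diet comparisons 0, and HFC and LFC arrays of the same time label correlated at -0.49 to 0.77 (median 0.20), against a median of -0.06 for different labels. Signal near background limits Tlr3, Tlr5 and Tlr8.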
